A study of Mus musculus with 12 samples.

Results

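The 10 genes described here are C1qa, C1qb, C1qc, Vcam1, Hmox1, Slc40a1, Cd163, Mertk, Axl and Spic, which encode complement C1q, proteins that take heme and iron out of old red cells, and surface receptors and a transcription factor of tissue macrophages. All 10 were found among the 46103 genes listed, each as a single feature. They were selected on measured values of the same libraries, in which C1qc, Vcam1 and Hmox1 were known to be higher in G0M+ than in G0M- cells, so each difference between these populations is given as a description, and the calls counted for it describe the selection and support nothing. The effect of imatinib was not used to choose them and was tested for 6 of them. Of these, Cd163 was abundant enough for a test in imatinib libraries only.

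RNA-seq had been run on 12 libraries of 100 sorted cells from a mouse model of chronic myeloid leukemia (CML), with 3 libraries in each of 4 groups. Bone marrow cells of 5FU-treated C57BL/6 mice that carried the G0 marker (G0M), a fusion of mVenus with a mutant of p27 that loses Cdk inhibition, switched on in blood cells by Vav1-Cre from the Rosa26 locus, had been transduced with a BCR-ABL1 and GFP retrovirus and transplanted, with normal marrow cells, into lethally irradiated C57BL/6 mice. From day 10 the recipients received vehicle or 40 mg/kg imatinib, which inhibits the kinase of BCR-ABL1, once a day by gavage. From BCR-ABL1+ Lin- Sca1+ c-Kit+ (LSK) cells of bone marrow and spleen, G0M+CD27+ cells (DP after vehicle, IMDP after imatinib) and G0M-CD27+ cells (SP and IMSP) had been sorted. All 4 groups thus carried the G0 marker and BCR-ABL1, which came from a viral promoter and not from its own locus. The lineage cocktail held antibodies to CD5, TER-119, CD11b, Gr-1 and B220, and CD11b is carried by many macrophages. The sources used here do not state whether the libraries of a group came from separate mice, so p-values measure the spread between these libraries only. All imatinib libraries have the numbers 1 to 6 and all vehicle libraries 7 to 12, so treatment and library number cannot be told apart.

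C1q is the recognition unit of the classical complement pathway and is assembled from A, B and C chains, which C1qa, C1qb and C1qc encode. It is made mostly by macrophages and binds antibody complexes and dying cells. Macrophages of spleen and bone marrow also clear aged red cells: Spic is a transcription factor of these cells, Cd163 takes up hemoglobin bound to haptoglobin, Hmox1 (heme oxygenase 1) opens the heme ring, and Slc40a1 (ferroportin) exports the iron. Mertk and Axl are receptor kinases that bind bridging proteins on dying cells, and Vcam1 is an adhesion molecule that holds blood cells to macrophages and stroma through the integrin of Itga4 and Itgb1.

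Levels are RPKM, reads scaled to the length of the gene and the size of the library, so they can be compared between genes. The RPKM values could be turned back into whole reads, and the libraries held between 11368000 and 20574000 reads, of which 26.2% to 37.8% lay on the listed features, with the lowest shares in IMDP2 and IMDP3. These genes were rare in all libraries. Their summed level was 6.53 to 15.7 RPKM (260 to 622 reads) in the 6 G0M+ libraries and 1.52 to 3.12 RPKM (82 to 194 reads) in the 6 G0M- libraries. Between 8 and 10 of the 10 genes had a read in each G0M+ library, against 4 to 6 in each G0M- library. In sums over 100 cells, fewer cells of a type and less RNA per cell cannot be told apart.

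C1qb, C1qc and C1qa lie side by side in this order on the minus strand of chromosome 4 (GRCm38), at 136880129 to 136886187, 136889804 to 136893065 and 136895917 to 136898803, within 18.7 kilobases. Of the 10 genes, 6 were matched to a promoter in the RefSeq set for GRCm38.p6, namely C1qb, C1qc, Cd163, Mertk, Axl and Spic. The 250 bases before the start site are shown for the 2 C1q chains and for Spic, since these genes varied together between the G0M+ libraries, and capitals mark AGGAAG, the core that ETS factors such as the products of Spi1 and Spic bind, or CTTCCT, the same letters on the other strand. They are C1qb at chr4:136886201-136886450, C1qc at chr4:136892915-136893164 and Spic at chr10:88683024-88683273, all minus strand.
C1qb: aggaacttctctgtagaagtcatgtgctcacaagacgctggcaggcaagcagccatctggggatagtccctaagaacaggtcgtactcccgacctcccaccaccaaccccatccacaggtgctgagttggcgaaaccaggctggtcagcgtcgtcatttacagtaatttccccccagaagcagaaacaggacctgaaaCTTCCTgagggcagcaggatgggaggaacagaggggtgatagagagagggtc
C1qc: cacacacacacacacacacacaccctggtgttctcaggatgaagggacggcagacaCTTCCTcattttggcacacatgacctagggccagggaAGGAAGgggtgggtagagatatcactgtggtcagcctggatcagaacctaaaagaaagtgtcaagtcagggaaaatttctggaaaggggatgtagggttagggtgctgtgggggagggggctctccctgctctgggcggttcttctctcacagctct
Spic: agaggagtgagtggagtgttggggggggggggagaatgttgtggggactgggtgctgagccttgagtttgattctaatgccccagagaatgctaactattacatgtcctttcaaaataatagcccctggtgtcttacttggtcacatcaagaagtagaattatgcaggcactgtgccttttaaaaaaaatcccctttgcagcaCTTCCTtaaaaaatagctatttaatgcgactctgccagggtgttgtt
The letters AGGAAG, searched on both strands, were found in 4 of these 6 promoters (C1qb, C1qc, Axl and Spic), and in 29.5% of 32851 promoters of this length. The matches lay 52 to 47 bases before the start of C1qb and 47 to 42 bases before that of Spic. C1qc held 2 matches, which began 194 and 157 bases before its start. These starts are those of the promoter set. The Spic window lies wholly inside the Spic gene span, 88674772 to 88685015. The C1qc window overlaps the C1qc gene span, which ends at 136893065. The starts used for these 2 genes thus lie inside their gene spans. The letters TGACNNNGC, which cover the antioxidant element bound by NRF2 and BACH1, were found on the opposite strand of the C1qb promoter only among the 6, and in 10.2% of all promoters. They do not overlap the other match. These are matches of letters in a window, and no binding was measured.

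The 3 C1q genes were listed at 0 in all 6 G0M- libraries and had reads in the G0M+ libraries. C1qa had 0.531, 0 and 0.25 RPKM in DP1 to DP3 and 0.501, 1.06 and 0.927 in IMDP1 to IMDP3. C1qb had 0.721, 0.241 and 0.509 RPKM in the DP libraries and 1.46, 1.65 and 0.778 in the IMDP libraries. C1qc had 1.65, 0.342 and 0.542 RPKM in the DP libraries and 1.52, 1.5 and 1.05 in the IMDP libraries. DP2 was the lowest of all G0M+ libraries for each chain, and DP1 was the highest DP library for each. In reads, the 3 chains together had 50, 10 and 21 in DP and 49, 68 and 51 in IMDP cells, against 0 in each SP and IMSP library. Set against a floor of 3 reads over a group, C1qa was at least 4.79-fold, C1qb at least 8.85-fold and C1qc at least 16.2-fold higher in DP than in SP cells. The same bounds for IMDP against IMSP cells were 12.96-fold, 19.0-fold and 21.2-fold. These bounds cover counting error only.

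**Figure D1:**
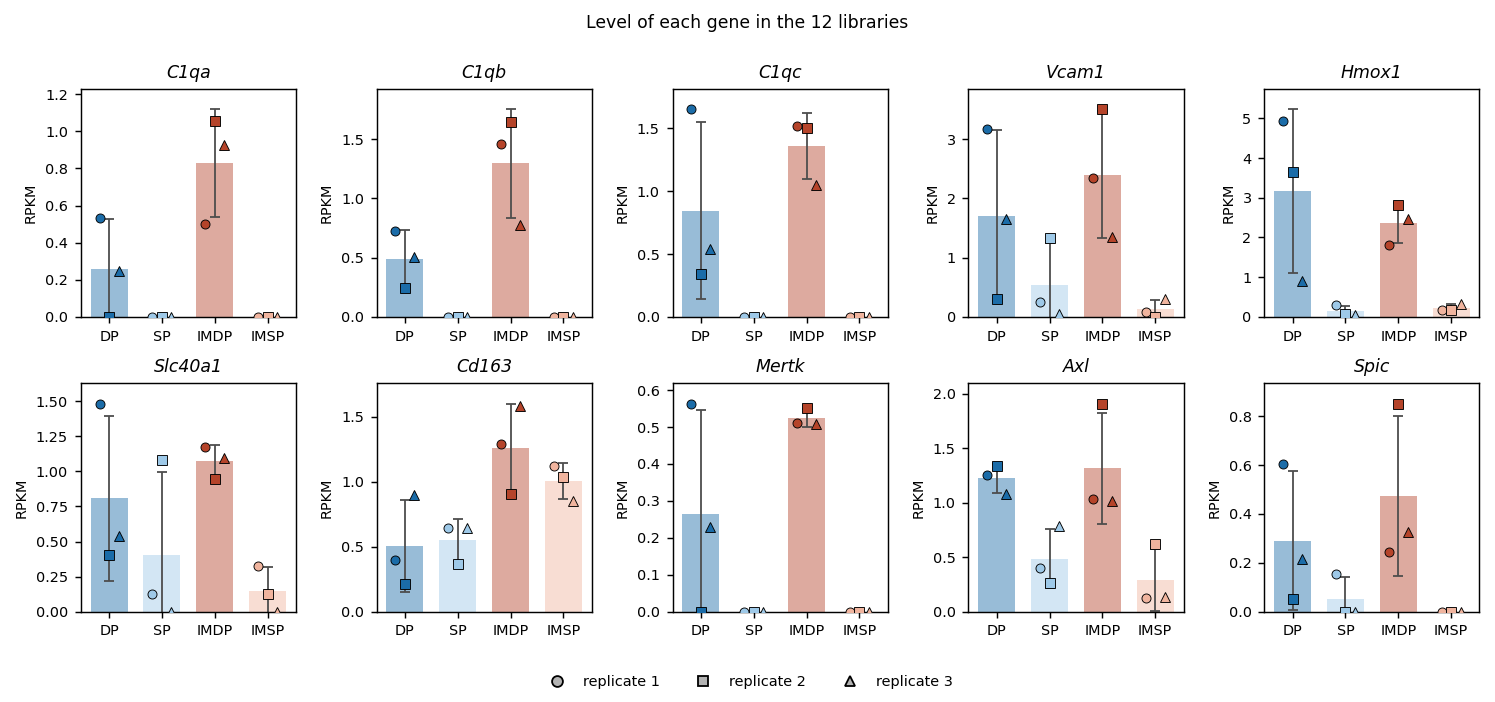
Level of each of the 10 genes in RPKM (vertical axes, each with its own scale, from 0) in DP, SP, IMDP and IMSP cells. Points are single libraries, bars are means of 3 libraries and whiskers are 1 SD. C1qa, C1qb, C1qc and Mertk sit at 0 in all SP and IMSP libraries, and Cd163 is the gene whose DP and SP libraries lie at like heights.

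Mertk (chromosome 2, 128698956 to 128802894), the receptor kinase through which macrophages engulf dying cells, had the same pattern as C1q. It had 0.562, 0 and 0.23 RPKM in DP1 to DP3 (44, 0 and 17 reads) and 0.511, 0.552 and 0.508 in IMDP1 to IMDP3 (33, 41 and 43 reads). No read was found in any SP or IMSP library, so that Mertk was at least 22.5-fold higher in DP than in SP cells and at least 37.0-fold higher in IMDP than in IMSP cells. Its IMDP libraries lay close together, while DP2 was again without a read.

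Spic (chromosome 10, 88674772 to 88685015) was the least abundant of the 10 genes in G0M+ cells, with a mean of 0.382 ± 0.293 RPKM (SD, n = 6). Its level was 0.605, 0.0505 and 0.214 RPKM in DP1 to DP3, 0.245, 0.85 and 0.326 in IMDP1 to IMDP3, 0.154 in SP1 and 0 in the other 5 G0M- libraries. The DP and SP libraries overlapped, since DP2 held 1 read and SP1 4 reads. IMDP cells were at least 8.53-fold above IMSP cells.

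Vcam1 (chromosome 3, 116109949 to 116129688) reached the second highest mean of the 10 genes in G0M+ cells, 2.05 ± 1.2 RPKM (SD, n = 6), against 0.338 ± 0.504 in G0M- cells. It had 3.18, 0.301 and 1.65 RPKM in DP1 to DP3 and 0.257, 1.34 and 0.0437 in SP1 to SP3. The DP and SP libraries overlapped, with 16 reads in DP2 and 77 reads in SP2. In IMDP1 to IMDP3 it had 2.35, 3.5 and 1.35 RPKM, all above the 0.0837, 0 and 0.306 of IMSP1 to IMSP3. On the scale of log2(RPKM + 0.1), the difference was 1.65 between DP and SP and 3.58 between IMDP and IMSP cells. With single libraries left out it lay between 0.88 (without SP3) and 2.54 (without SP2) for DP against SP, with 1.00 without DP1, and between 3.10 (without IMSP2) and 4.11 (without IMSP3) for IMDP against IMSP cells.

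Hmox1 (chromosome 8, 75093621 to 75100589), the enzyme that breaks heme into biliverdin, iron and carbon monoxide, was the most abundant of the 10 genes in G0M+ cells. Its level was 4.94, 3.65 and 0.901 RPKM in DP1 to DP3 and 1.82, 2.82 and 2.47 in IMDP1 to IMDP3. In SP1 to SP3 it was 0.308, 0.0748 and 0.0471 RPKM, and in IMSP1 to IMSP3 0.181, 0.167 and 0.329 RPKM. Every G0M+ library lay above every G0M- library. DP2, the lowest library for C1q, was the second highest for Hmox1, and the lowest G0M+ library was DP3. The difference was 3.60 between DP and SP and 2.93 between IMDP and IMSP cells on the log2(RPKM + 0.1) scale.

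Slc40a1 (chromosome 1, 45908068 to 45926523), the exporter of the iron freed by Hmox1, had 1.48, 0.402 and 0.542 RPKM in DP1 to DP3 and 0.125, 1.08 and 0 in SP1 to SP3. SP2, with 64 reads, lay above 2 of the 3 DP libraries, and it was also the SP library with the most Vcam1. Set beside the SP library with the neighbouring library number (DP1 and SP2, DP2 and SP3, DP3 and SP1), the DP library was higher in all 3 pairs for both genes. The labels do not say that these numbers mark a shared batch, and the share of all genes that do so was not counted. In IMDP1 to IMDP3 Slc40a1 had 1.17, 0.943 and 1.1 RPKM, above the 0.326, 0.126 and 0 of IMSP1 to IMSP3. Cd163 (chromosome 6, 124304656 to 124330527), the hemoglobin scavenger receptor, did not share this order. It had 0.396, 0.212 and 0.898 RPKM in DP, 0.646, 0.366 and 0.642 in SP, 1.29, 0.908 and 1.58 in IMDP and 1.12, 1.03 and 0.854 in IMSP cells. Its population means were 0.88 ± 0.517 RPKM in G0M+ and 0.777 ± 0.281 in G0M- cells (SD, n = 6 each), and the libraries of both overlapped.

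Axl (chromosome 7, 25757273 to 25788705), a receptor kinase of the same family as Mertk, was present in all 12 libraries. It had 1.26, 1.33 and 1.08 RPKM in DP1 to DP3 and 0.402, 0.267 and 0.789 in SP1 to SP3. In IMDP1 to IMDP3 it had 1.04, 1.9 and 1.01 RPKM and in IMSP1 to IMSP3 0.123, 0.623 and 0.131. Axl thus differed from Mertk in having reads in G0M- cells (9 to 54 a library) and in not being low in DP2. The 6 G0M+ libraries lay above the 6 G0M- libraries.

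For 8 of the 10 genes the order of the group means began with IMDP and then DP. The exceptions were Hmox1, with DP before IMDP, and Cd163, with IMDP before IMSP. IMDP and DP were neighbours in 9 of the 10 orders, and their libraries overlapped in 8 of these 9, the exception being C1qb, where the lowest IMDP library (0.778) lay just above the highest DP library (0.721). Over all DP and SP libraries, 4 of the 10 genes did not overlap (C1qb, C1qc, Hmox1 and Axl), where the same held for 8.86% of the 16776 genes with any read. Over IMDP and IMSP libraries it was 9 of 10, all but Cd163, with a background of 6.78%. Over all 6 G0M+ against all 6 G0M- libraries it was again C1qb, C1qc, Hmox1 and Axl, with a background of 1.07%. These counts rest on the values that chose the genes.

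A level of at least 1 RPKM in at least 3 libraries was required for a test, which 6 of the 10 genes reached (C1qc, Vcam1, Hmox1, Slc40a1, Cd163 and Axl). C1qa, C1qb, Mertk and Spic were not tested. Since those that passed did so mostly through the G0M+ libraries, their counts describe the selection and nothing is read from them. Between DP and SP cells 1 gene, Hmox1, passed an adjusted p of 0.05 by limma as higher, with 0.288% of 10072 genes doing so. With a block by neighbouring library numbers, C1qc passed as well, and by limma-voom on the reads C1qc passed and Hmox1 did not (adjusted p = 0.15). The block called 420 of the 10072 genes higher and limma-voom 44, against 29 in the main fit. Between IMDP and IMSP cells 4 members passed (C1qc, Vcam1, Hmox1 and Axl), with a background of 2.37%, and Vcam1 did not pass by limma-voom (adjusted p = 0.104). Averaged over treatments 5 tested members passed, all but Cd163, with 5.32% of all genes higher and 21.0% lower in G0M+ cells. Vcam1 had an adjusted p of 0.0527 by limma-voom, and Slc40a1 passed in 8 of 20 other settings. The median difference over all tested genes was -0.13 on the log2 scale averaged over treatments and -0.25 between IMDP and IMSP cells. Of all genes called in the average, 20.2% were higher in G0M+ cells, and 47.5% were after each library was scaled to its median, which left the 5 calls in place. Without IMDP2 or without IMSP1, C1qc and Hmox1 were the 2 that passed between IMDP and IMSP cells.

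**Figure D2:**
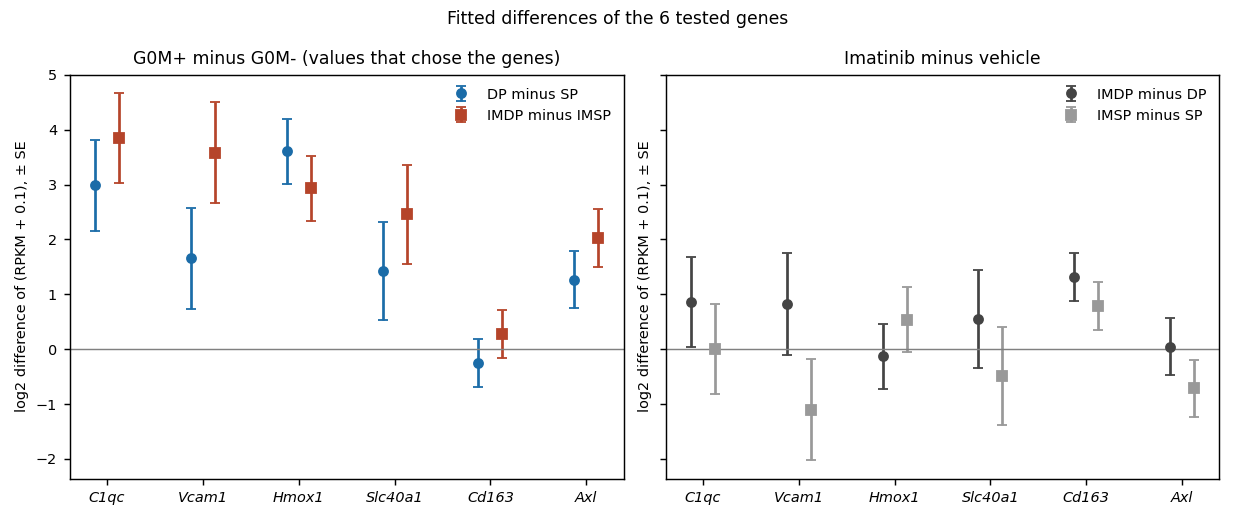
Fitted differences on the log2(RPKM + 0.1) scale for the 6 tested genes, with the populations on the left and the treatments on the right. Points are the limma estimates from 3 libraries a group and whiskers are 1 SE. Except for Cd163 (-0.25 and 0.28), all population differences lie above 0, while the treatment differences lie between -1.10 and 1.31.

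Whether imatinib changed these genes could be tested, and no tested member passed. Averaged over populations, 0 of the 6 genes passed the adjusted p of 0.05 by limma, where 0.854% of all genes did, and Cd163 was the 1 member with an unadjusted p under 0.05. Limma-voom on the reads called 0 of the 6 here and in each of the following treatment contrasts. Between IMDP and DP cells it was 0 of 6 with a background of 0.367%, and Cd163 was again the 1 member with an unadjusted p under 0.05. Between IMSP and SP cells, and for the interaction of population and treatment, it was 0 of 6 with 0.0% of all genes called in each, and no member had an unadjusted p under 0.05. Beside these, all 6 imatinib libraries lay above all 6 vehicle libraries for 0.441% of the genes with a read and for 0 of the 10 genes.

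Among the 6 tested genes, Cd163 had the most even shift. Its mean was 0.527 ± 0.248 RPKM in the vehicle and 1.13 ± 0.27 RPKM in the imatinib libraries (SD, n = 6 each). All IMDP libraries lay above all DP libraries and all IMSP libraries above all SP libraries, but IMSP3 (0.854) lay below DP3 (0.898). Cd163 reached 1 RPKM in IMDP1, IMDP3, IMSP1 and IMSP2 only, all of them imatinib libraries. It thus entered the fit through the treatment where it was high, and its p-values are a description. The difference was 1.05 ± 0.31 (SE) on the log2 scale averaged over populations, with an adjusted p of 0.116 by limma. It was 1.31 ± 0.44 between IMDP and DP cells (adjusted p = 0.142 by limma) and 0.79 ± 0.44 between IMSP and SP cells (adjusted p = 0.66 by limma). Over 19 other settings the average lay between 0.49 and 1.27, with an adjusted p by limma between 0.0615 and 0.245.

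For the other 5 tested genes the error was larger than the difference averaged over populations. This log2 difference of imatinib from vehicle was 0.43 ± 0.58 for C1qc, 0.20 ± 0.42 for Hmox1, 0.03 ± 0.63 for Slc40a1, -0.14 ± 0.65 for Vcam1 and -0.33 ± 0.37 for Axl (SE). Within populations the difference exceeded the error for C1qc between IMDP and DP cells (0.86 ± 0.83). It also did so between IMSP and SP cells for Vcam1 (-1.10 ± 0.92) and Axl (-0.71 ± 0.52), and none passed. The change seen for Cd163 did not pass with an error smaller than each of these. A change of its size could thus not be told from none in any of these 5 genes. For the members not tested, the means in IMDP and DP cells were 0.828 ± 0.291 and 0.26 ± 0.266 RPKM for C1qa, 1.29 ± 0.456 and 0.49 ± 0.241 for C1qb, 0.524 ± 0.0243 and 0.264 ± 0.283 for Mertk, and 0.473 ± 0.328 and 0.29 ± 0.285 for Spic (SD, n = 3). DP2 was low in all 4 of these.

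Agreement between single libraries was uneven. DP1 was the highest DP library for 8 of the 10 genes and DP2 the lowest for 8, while IMDP2 was the highest IMDP library for 7. DP1 also had the highest summed level of 15 cell cycle genes among the G0M+ libraries, 137 RPKM against 28.4 to 55.9 RPKM in the other 5, where the G0M- libraries had 345 to 487. Mpo, the myeloperoxidase of neutrophil precursors, was 766 RPKM in DP1 against 37.8 to 167 RPKM in the other 5 G0M+ libraries, and the summed level of the neutrophil and monocyte genes was 1503 RPKM in DP1 against 74.4 and 270 RPKM in DP2 and DP3. The part of these in the DP1 values was not tested. As a description without a test, Pearson's r of log2(RPKM + 0.1) over the 6 G0M+ libraries was between 0.71 and 0.96 for the 21 pairs among C1qa, C1qb, C1qc, Mertk, Spic, Vcam1 and Slc40a1, with a median of 0.85. After the group means were taken off it was between 0.63 and 0.95. These genes were grouped after their values were seen, and DP2 is a low point shared by all pairs. Hmox1 had r between -0.08 and 0.32 with the same 7 genes, and Axl between -0.08 and 0.46. Cd163 and Hmox1 had r of -0.56.

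Among the other tested genes, those most like the mean of the 3 C1q chains over all 12 libraries were Grina (r = 0.95), Slfn5 (0.92), Ctsf (0.91), Itpr2 (0.91) and Nacc2 (0.90). For Hmox1 they were Slfn5 (0.91), Tns1 (0.89), Ndst2 (0.87), Ung (0.86) and Nacc2 (0.86). For Vcam1 they were Pnpla7 (0.85), Grina (0.84), Arrb1 (0.84), Il18bp (0.84) and Pirb (0.83). These are the highest of 10066 values over 12 libraries that share the 4 groups. Once the group means were taken off, Slfn5 had r of 0.02 with C1q, Grina 0.55 and Ctsf 0.35.

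Defining macrophage markers did not all share the pattern. Cd5l, a secreted protein of tissue macrophages, did: it was 0.94, 0.376 and 0.531 RPKM in DP1 to DP3, 0.266, 1.39 and 0.58 in IMDP1 to IMDP3 and 0 in all 6 G0M- libraries. Adgre1, the F4/80 antigen, was higher in G0M+ cells by 1.58 ± 0.53 on the log2 scale (SE, adjusted p = 0.0454 by limma), with 1.72 ± 1.33 RPKM against 0.516 ± 0.504 (SD, n = 6 each). Its adjusted p by limma-voom was 0.0788, and it passed under 7 of 20 other settings. Csf1r, the receptor of the macrophage growth factor, had 4.24 ± 2.8 and 7.54 ± 10.6 RPKM in G0M+ and G0M- cells, with the highest value, 28.7, in IMSP3. Cd68, a lysosomal glycoprotein, had 3.64 ± 1.17 and 3.64 ± 1.85 RPKM, a log2 difference of 0.06 ± 0.23 (SE). Imatinib minus vehicle, averaged over populations, was 1.83 ± 0.56 for Csf1r and 0.74 ± 0.23 for Cd68 (SE, adjusted p = 0.125 and 0.127 by limma). For Adgre1 it was 0.59 ± 0.53 (SE, adjusted p = 0.588 by limma). Siglec1, a sialic acid receptor of tissue macrophages, had 0.0292, 0.00975 and 0.0103 RPKM in DP1 to DP3 and 0.0445, 0 and 0 in SP1 to SP3. In IMDP1 to IMDP3 it had 0.0709, 0.185 and 0.324 RPKM (6, 18 and 36 reads), all above the 0, 0.0134 and 0 of IMSP1 to IMSP3. Marco, Timd4, Clec4f and Cd209f were listed at 0 in all 12 libraries.

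**Figure D3:**
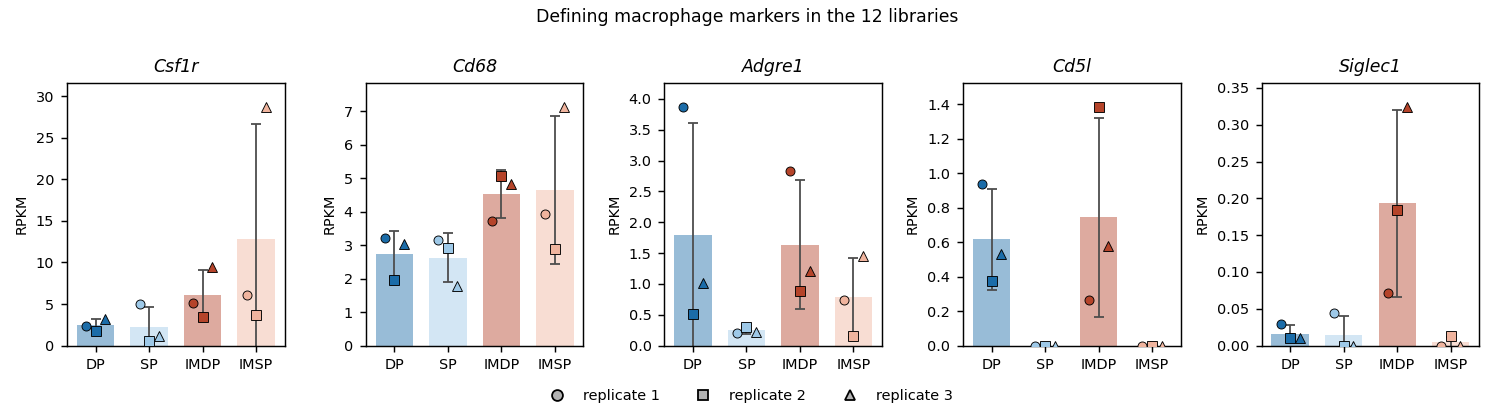
Level of 5 macrophage markers in RPKM (vertical axes, each from 0) in the 4 groups. Points are single libraries, bars are means of 3 libraries and whiskers are 1 SD. Cd5l sits at 0 in all SP and IMSP libraries, whereas Csf1r and Cd68 are present in all 12 libraries, with Csf1r highest in IMSP3 (28.7 RPKM).

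Of the whole list of 30 macrophage identity genes without the 10 genes, 26 had a read and 11 were tested. Adgre1 was higher in G0M+ cells, none was lower and 10 did not pass, where 5.32% of all genes were higher and 21.0% lower. The median log2 difference was 0.13 against -0.13 over all genes. The summed level of the list was 49.2 to 75.8 RPKM in DP, 38.9 to 76.8 in SP, 83.7 to 99.7 in IMDP and 70.3 to 144 in IMSP libraries. No list had a gene past the threshold for imatinib averaged over populations. The part of macrophages among the sorted cells in the values of C1q, Mertk and Spic was not tested.

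Calls among genes around heme and iron lay near the shares over all genes. Of 32 listed, 30 were in the files and 25 were tested. Of these, 1 was higher (Srxn1) and 6 were lower in G0M+ cells, where 5.32% of all genes were higher and 21.0% lower. The same shares apply to the lists below. The median log2 difference was -0.06, against -0.13 over all genes. After scaling to the median, 3 were higher and 4 lower, where 1131 of all 10072 genes were higher and 1248 lower. Srxn1, a sulfiredoxin that repairs oxidized peroxiredoxins and is a target of NRF2, was 2.65 ± 0.211 RPKM in G0M+ and 1.06 ± 0.332 in G0M- cells (SD, n = 6 each), a difference of 1.28 ± 0.19 (SE, adjusted p = 0.000878 by limma). Hp, haptoglobin, the plasma protein whose complex with hemoglobin Cd163 binds, was lower by -3.00 ± 0.70 (SE, adjusted p = 0.0103 by limma). Its libraries ranged from 0.3 to 13.3 RPKM in G0M+ and from 4.36 to 37.1 in G0M- cells. Keap1, which marks NRF2 for breakdown, and Pcbp2, an iron chaperone and RNA-binding protein, were lower by -0.49 ± 0.09 (adjusted p = 0.00379 by limma) and -0.48 ± 0.10 (adjusted p = 0.00621 by limma), and by -0.33 and -0.32 after scaling to the median. Blvrb, which reduces biliverdin, the product of Hmox1, had a difference of 0.72 ± 0.28 (adjusted p = 0.0749 by limma), which passed in 5 of 20 other settings. Bach1, the repressor of Hmox1, had 0.27 ± 0.16, and the ferritin heavy chain Fth1, the store for freed iron, -0.05 ± 0.13 (SE), and neither passed under any of 20 other settings.

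The rest of the complement system held 29 listed genes, of which 27 had a read and 11 were tested. Cd59a, which blocks the last step of complement attack, and Itgb2, a subunit of complement receptors, were higher by 0.90 ± 0.27 and 0.77 ± 0.22 (SE, adjusted p = 0.0328 and 0.0248 by limma). They passed under 12 and 16 of 20 other settings. C1qbp, a mitochondrial protein first found as a C1q binder, and Calr, calreticulin, a chaperone that C1q can bind, were lower by -0.64 ± 0.15 and -1.09 ± 0.26 (SE, adjusted p = 0.0112 and 0.0124 by limma). The median was 0.11. C1rb and C1s1, which encode proteases of the C1 complex, were listed at 0 in all libraries.

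Among 32 genes for the engulfment of dying cells, 20 were tested and 1 was higher in G0M+ cells, Havcr2 (TIM-3), by 1.13 ± 0.37 (SE, adjusted p = 0.0434 by limma), with a list median of 0.06. It passed under 8 of 20 other settings. Gas6, the ligand that bridges Axl and Mertk to dying cells, had 0.0739 to 0.345 RPKM in G0M+ and 0 to 0.271 RPKM in G0M- libraries and was not tested. Tyro3, the third receptor of this family, had 0.0578 to 0.344 and 0.0581 to 0.327 RPKM. Of 22 macrophage transcription factor genes, 15 were tested and 2 were lower in G0M+ cells, Tfec by -0.95 ± 0.25 (adjusted p = 0.0189 by limma) and Cebpa by -1.41 ± 0.44 (adjusted p = 0.036 by limma), with a list median of -0.14. Cebpa did not pass after scaling to the median (adjusted p = 0.0547 by limma), where 1 gene of the list was higher and 1 lower. Spi1, which encodes PU.1, had 9.89 ± 1.96 RPKM in G0M+ and 14.8 ± 4.49 in G0M- cells (SD, n = 6 each, adjusted p = 0.0616 by limma).

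The partners of Vcam1 were not rare. Itga4, a subunit of its main receptor, had 15.9 ± 1.56 RPKM in G0M+ and 15.8 ± 2.24 in G0M- cells (SD, n = 6 each), a log2 difference of 0.02 ± 0.11 (SE). Of 22 listed genes of VCAM1 partners and stromal cells, 13 were tested and 2 were higher, Itga9 and Itgb7, with a median of 0.39. Itgb7 was higher by 0.98 ± 0.33 (SE, adjusted p = 0.0454 by limma) and passed under 9 of 20 other settings. Both encode integrin subunits that can bind VCAM1. Itga9 had 0.385 to 1.92 RPKM in G0M+ and 0.0726 to 0.679 in G0M- libraries, and reached 1 RPKM in 3 libraries, all of them G0M+, so that it entered the fit through the group where it was high and its call supports nothing.

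Of 9 tested mast cell and basophil genes, 5 were higher in G0M+ cells and none was lower, where 5.32% of all genes were higher. Prss34, a basophil protease, had 34.1, 9.99 and 13.4 RPKM in DP1 to DP3 and 35.5, 13.1 and 0 in IMDP1 to IMDP3, and Cma1, a mast cell protease, 14.3, 28.5 and 5.46 and 25.6, 0.247 and 0. Mcpt8 had 110, 19.9 and 31.8 RPKM in DP1 to DP3 and 34.1, 15.3 and 4.14 in IMDP1 to IMDP3. Fcer1a had 21.2, 0.372 and 1.57 RPKM in DP1 to DP3 and 22.2, 4.43 and 0.63 in IMDP1 to IMDP3. Mcpt8 and Fcer1a were higher by 2.04 ± 0.55 and 3.40 ± 0.99 (SE, adjusted p = 0.0198 and 0.027 by limma), and Fcer1a passed under 14 of 20 other settings, with an adjusted p of 0.237 by limma-voom. Prss34 and Cma1 did not pass by limma-voom either (adjusted p = 0.206 and 0.0631). Of 11 erythroid genes, Hbb-bt was higher by 1.68 ± 0.45 (SE, adjusted p = 0.019 by limma) and 10 did not pass. Of 9 neutrophil and monocyte genes, 4 were lower (Mpo, Prtn3, Ctsg and Lcn2), and Mpo passed after scaling to the median with an adjusted p of 0.0416 by limma while the other 3 did not. The single tested gene of dendritic cells and lymphocytes did not pass. Of 11 genes of the sorted LSK cells, Ly6a, which encodes Sca1, was higher by 1.42 ± 0.28 (SE, adjusted p = 0.00544 by limma), and all 15 cell cycle genes were lower, among them Mki67 by -2.42 ± 0.16 (SE, adjusted p = 6.12e-06 by limma). Fewer than 3 G0M- libraries reached 1 RPKM for Adgre1, Srxn1, Havcr2, Fcer1a, Prss34 and Cma1, and fewer than 3 G0M+ libraries for Lcn2, so these entered the fit through the population where they were high. The part of the genes of other cells in the values of the 10 genes was not tested.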

How the data were processed

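RNA-seq of 12 libraries of 100 sorted cells was used. Per the labels and methods, the authors amplified cDNA with not-so-random primers, prepared libraries with Nextera XT, sequenced them on a NextSeq and mapped reads to GRCm38 (mm10) with CLC Genomics Workbench. The deposited values are RPKM for 48737 features, with no strand stated. The members and all gene lists were chosen with earlier results of these data known.

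Numbered copies of a gene were summed, and the 10072 of 46103 genes that reached 1 RPKM in 3 or more libraries entered a fit with limma 3.58.1 (R 4.3.3) on log2(RPKM + 0.1), with 4 group means, eBayes with trend, Benjamini-Hochberg adjustment over all tested genes and a threshold of 0.05. Such fold changes understate changes of low genes. Whole reads were recovered for all 17735 features above 0 (within 0.02 of a whole number, or within 0.1 for 60 abundant features), and their totals gave 11368000 to 20574000 reads per library. For 448 features the number of reads was set with the help of annotated lengths. Recovery and test were tested on simulated data. The genes named were all 10 members, set macrophage markers and partners, up to 4 genes of each list with the smallest adjusted p for the population average and up to 2 for the treatment average, and the 5 genes most like C1q, Hmox1 and Vcam1. A marker that this rule also names is not reported here. Alternatives were pseudocounts of 1 and 0.01, no filter, median scaling, blocks by replicate number or by neighbouring library numbers, fits on the compared groups alone, the highest copy of each gene, limma-voom on recovered reads and each library left out. Deviations from group means correlated at 0.43, 0.65 and 0.46 between IMDP and IMSP libraries of the same replicate number, which pairs them. Between DP and SP libraries they correlated at -0.19, -0.30 and -0.10 for the same replicate number and at 0.51, 0.52 and 0.50 for neighbouring library numbers, though the labels do not say that library numbers mark a shared batch.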

Additional observations from a re-analysis of the deposited data

How the results depend on the processing

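The population differences are descriptions, and the 5 called kept their direction under all settings. The number of tested members past the threshold between DP and SP cells was 1, and it was 3 of 10 without the filter, 2 (C1qc and Hmox1) with the block by neighbouring library numbers, 1 by limma-voom (C1qc in place of Hmox1) and 0 when only these groups were fitted. Of all genes, 29 of 10072 were called higher in the main fit and 29 of 16776 without the filter. It was 420 with that block, 44 by limma-voom and 25 with these groups alone. Between IMDP and IMSP cells 4 members passed, 8 of 10 without the filter and 2 to 5 with single libraries left out, the lowest without IMDP2 and without IMSP1. Without the filter 269 of 16776 genes were called higher there, against 239 of 10072. Averaged over treatments 5 members passed, 3 with a pseudocount of 0.01 and 8 of 10 without the filter. Genes called higher there numbered 536 of 10072, 521 with that pseudocount and 555 of 16776 without the filter. Slc40a1 was the least stable, past the threshold in 8 of 20 settings. For imatinib 0 members passed under every setting in which it was fitted. The block by neighbouring library numbers gave only the interaction with treatment. The replicate block changed none of these 7 counts and gave 46 genes of the lists against 43. That count was 89 with the block by library numbers and 27 to 54 with single libraries left out, the lowest without IMSP1. Over all genes, calls for the population average numbered 2648, and 4721 with the block by library numbers. Calls for imatinib numbered 86, 162 after median scaling, and 12 (without DP2) to 143 (without IMSP2) with single libraries left out. Between IMDP and DP cells they numbered 37, 2 after median scaling, and 0 (without IMDP3) to 189 (without IMDP1). The cause of these changes was not tested. With 1 to 10 reads in some G0M+ libraries, depth limits the 3 C1q genes and Spic. Mertk, with 0 to 44 reads in the G0M+ libraries, is limited as well, and 3 libraries a group limit all tests.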
